A study of Mus musculus with 6 samples.

Results

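Ubiquitin-conjugating enzymes (E2s) are encoded in the mouse mainly by genes whose symbol starts with *Ube2*. All 34 genes with such a symbol were taken from the 15707 genes of the deposited expression table, whatever their level. Of these, 31 encode enzymes with a catalytic E2 fold and 2, *Ube2v1* and *Ube2v2*, encode E2 variants (UEVs) that lack the catalytic cysteine. The remaining member, *Ube2cbp*, shares the prefix only, because it encodes a ubiquitin ligase that was named for binding UBE2C.

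Polyadenylated RNA of *Btg4*-depleted oocytes was compared with that of control oocytes, with 3 libraries of 50 oocytes in each group. *Btg4*-depleted oocytes had been injected with siRNAs against *Btg4*, an adaptor of the CCR4-NOT deadenylase, and control oocytes with control siRNAs. All came from (C57BL x CBA) F1 females of 10 to 12 days, grew in cultured follicles for 8 to 10 days and then matured to early metaphase II, with ovaries of several females pooled in a preparation. The reverse transcription was primed on poly(A) tails, so a longer tail and more RNA cannot be told apart in these libraries, and nor can fewer cells of a type and less RNA per cell.

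A ubiquitin-activating enzyme (E1) loads ubiquitin onto the catalytic cysteine of an E2, and a ligase (E3) then brings the charged E2 to a substrate. The E2 largely sets which kind of chain is built, and with it whether a protein is degraded or recruited into a signalling complex. Other E2s carry related modifiers such as NEDD8 or ISG15. In oocytes the best known task is served by a large ligase, the anaphase-promoting complex (APC/C), which marks cyclin B and securin for degradation at each meiotic division and is held inactive during the metaphase II arrest.

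The table gives the mean FPKM (sequenced fragments normalised to transcript length and to sequencing depth) of each group and not the single libraries. No standard deviation or test between groups could therefore be computed for any gene, and "higher" and "lower" describe 2 group means. *Btg4* itself was at 39.3 FPKM in *Btg4*-depleted oocytes and 1766 FPKM in control oocytes. All 9 oocyte markers examined were abundant, at 291 to 4440 FPKM in *Btg4*-depleted oocytes and 403 to 5445 FPKM in control oocytes. Of 10 markers of cumulus and granulosa cells 6 had an entry, with summed levels of 24.4 FPKM in *Btg4*-depleted oocytes and 28.1 FPKM in control oocytes. *Inha* (12.0 FPKM in *Btg4*-depleted and 8.20 FPKM in control oocytes) and *Hsd3b1* (5.59 and 2.15 FPKM) were higher in *Btg4*-depleted oocytes. *Cyp19a1* (5.87 and 14.8 FPKM) and *Kitl* (0.907 and 2.77 FPKM) were lower, and *Has2* and *Star* were at or below 0.097 FPKM. The part of such cells in the values below was not tested. A library held an estimated 7824540 fragments. Over the 320 genes behind this estimate the 5th percentile was 6917260 fragments and the 95th was 8122230 fragments.

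Of the 34 *Ube2* genes, 32 reached a mean of 1 FPKM over both groups and were compared (10012 of all genes did). Log2 ratios are of FPKM + 1, *Btg4*-depleted over control, after TMM scaling, which lines up the group means by a trimmed mean of the ratios of single genes. The scaling moved the median log2 ratio of all genes by 0.13, to -0.02, and the pseudocount of 1 makes the ratios of low genes smaller. Levels are relative to the total of each group, so a lower value need not mean less polyadenylated RNA per oocyte. After scaling, 6 *Ube2* genes were higher by at least 2-fold in *Btg4*-depleted oocytes (18.8%, against 19.5% of all measured genes) and 4 were at least 2-fold lower (12.5%, against 11.4% of all measured genes). With the FPKM as deposited the numbers were 4 higher and 6 lower, against 16.2% and 16.7% of all measured genes. These shares lie near those of all genes, so that the family as a group did not stand apart.

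The median log2 ratio of the 32 genes was 0.16, and their standard deviation across genes was 0.90, against 0.95 for all measured genes. A total of 18 members were above 0 and 14 below, while 49.4% of all genes were above 0. None of the 34 genes stands in the deposited lists of genes called with replicate error. That is 0 of 34 for genes called higher with DESeq2 (1.78% of all listed genes) or NOISeq (0.949%) and 0 of 34 for genes called lower with DESeq2 (0.261%) or NOISeq (0.0764%). The lists hold called genes only, so how near a *Ube2* gene came to a call is not known from them.

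**Figure D1:**
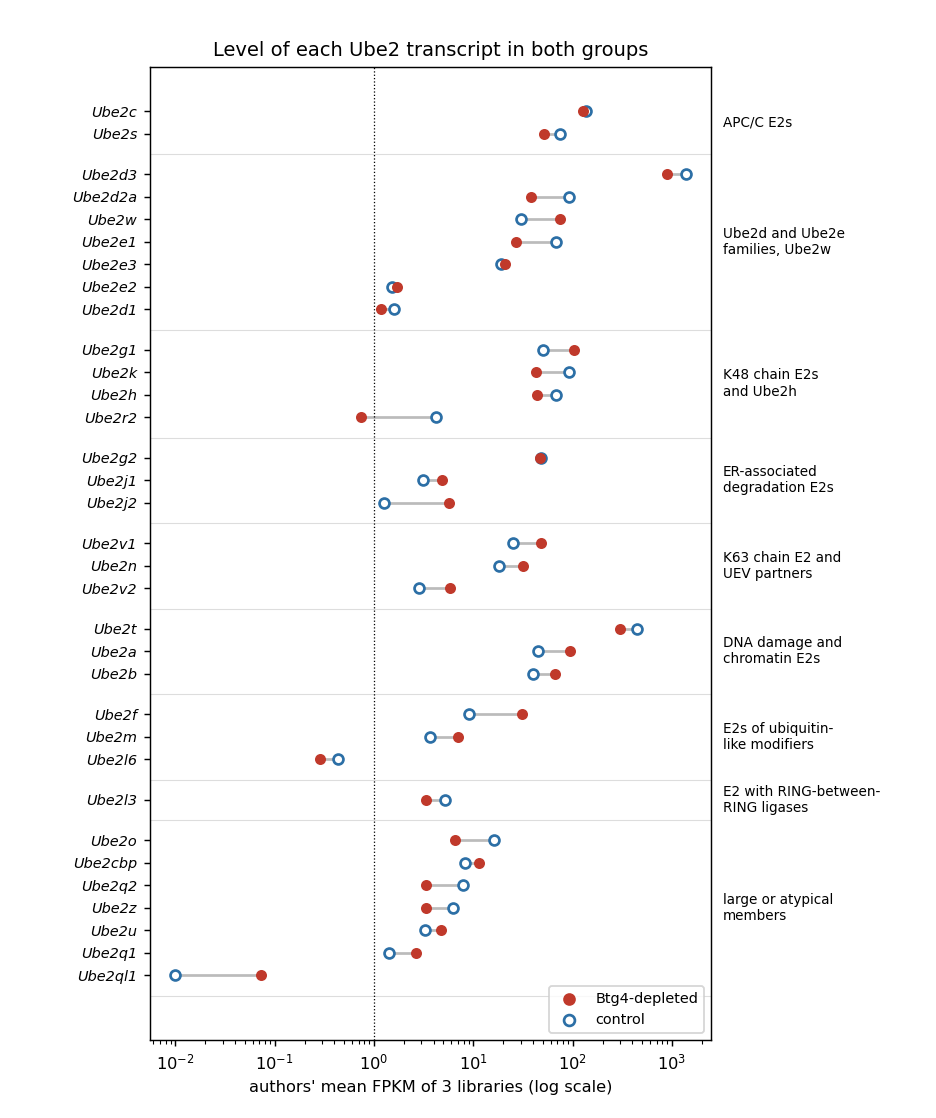
Authors' mean FPKM of the *Ube2* genes described by name (log scale) in *Btg4*-depleted (filled) and control oocytes (open), each the mean of 3 libraries without an error, ordered by role. The dotted line marks 1 FPKM. *Ube2d3* lies far to the right in both groups, and the longest lines among measured genes belong to *Ube2r2*, *Ube2j2* and *Ube2f*.

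*Ube2d3* dominated the family in both groups. The Ube2d enzymes serve a very wide range of RING ligases and often place the first ubiquitin on a substrate. *Ube2d3* was at 893 FPKM in *Btg4*-depleted oocytes, against 1380.0 FPKM in control oocytes (log2 ratio -0.46), which made it the 43rd and the 24th most abundant of all listed transcripts in these groups. It held 39.9% of the summed FPKM of *Ube2* genes in *Btg4*-depleted oocytes and 48.1% in control oocytes. Its relative *Ube2d2a* was at 38.0 FPKM in *Btg4*-depleted oocytes and 92.7 FPKM in control oocytes (log2 ratio -1.10). *Ube2d1*, the remaining listed gene of this family, was close to the minimum in both groups, at 1.17 FPKM in *Btg4*-depleted oocytes and 1.6 FPKM in control oocytes. *Ube2d3* and *Ube2d2a* were thus lower in *Btg4*-depleted oocytes, *Ube2d2a* by more than *Ube2d3*. *Ube2d1* rests on an estimated 13.3 fragments per library in *Btg4*-depleted oocytes and 18.1 in control oocytes, too few to give a direction.

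Of the related Ube2e genes only *Ube2e1* differed by at least 2-fold. The log2 ratios of *Ube2e2* (0.21) and *Ube2e3* (0.27) were above 0. They fell below 0 only after the loess correction for length, to -0.18 and -0.06, against -1.54 for *Ube2e1*. *Ube2e1* was at 26.8 FPKM in *Btg4*-depleted oocytes, against 68.0 FPKM in control oocytes (log2 ratio -1.15). *Ube2e3* was at 20.8 FPKM in *Btg4*-depleted oocytes and 19.1 FPKM in control oocytes, and *Ube2e2* stayed below 2 FPKM in both, at 1.72 and 1.53 FPKM. The ratio of *Ube2e1* to *Ube2e3*, in which any scaling drops out, was 1.29 in *Btg4*-depleted oocytes and 3.56 in control oocytes. *Ube2w*, whose product attaches ubiquitin to the amino terminus of proteins, had the opposite difference, with 75.1 FPKM in *Btg4*-depleted oocytes and 30.6 FPKM in control oocytes (log2 ratio 1.43). It was thereby the 7th most abundant *Ube2* transcript in *Btg4*-depleted oocytes and the 14th in control oocytes.

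The E2s of the APC/C were both abundant, and neither differed by 2-fold between the groups. In human cells UBE2C starts ubiquitin chains on APC/C substrates and UBE2S elongates them. *Ube2c* was at 127 FPKM in *Btg4*-depleted oocytes and 137 FPKM in control oocytes, a log2 ratio of 0.05 that turned to -0.11 without scaling and to -0.48 after a loess correction for transcript length. *Ube2s* was at 51.1 FPKM in *Btg4*-depleted oocytes and 74.9 FPKM in control oocytes (log2 ratio -0.38, and -0.90 after the length correction). There were 2.48 *Ube2c* FPKM for each of *Ube2s* in *Btg4*-depleted oocytes and 1.83 in control oocytes. *Ube2cbp*, the ligase that binds UBE2C, was lower than both, at 11.5 FPKM in *Btg4*-depleted oocytes and 8.21 FPKM in control oocytes.

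Among the E2s that build degradation signals in the cytosol, single genes differed in both directions. *Ube2g1* and *Ube2r2* extend chains on substrates of cullin-RING ligases, *Ube2k* builds chains of the same linkage, and *Ube2h* works with the CTLH ligase complex. *Ube2g1* was at 102 FPKM in *Btg4*-depleted oocytes, against 50.7 FPKM in control oocytes (log2 ratio 1.16, and 0.9994 without scaling). *Ube2k* was at 42.5 FPKM in *Btg4*-depleted oocytes, against 91.4 FPKM in control oocytes (log2 ratio -0.93, and -1.09 without scaling). The order of this pair was thus reversed, with 2.41 *Ube2g1* FPKM for each of *Ube2k* in *Btg4*-depleted oocytes and 0.554 in control oocytes. *Ube2h* was at 44.1 FPKM in *Btg4*-depleted oocytes and 68.6 FPKM in control oocytes.

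*Ube2r2*, a relative of *Cdc34*, had the lowest log2 ratio of the 32 genes, -1.49. It was at 0.737 FPKM in *Btg4*-depleted oocytes and 4.23 FPKM in control oocytes, and only 1.67% of all measured genes had as low a ratio. The value rests on an estimated 19.1 fragments per library in *Btg4*-depleted oocytes and 109.7 in control oocytes. With no pseudocount the log2 ratio was -2.36, and the deposited means, unscaled, differed 5.75-fold. After the length correction its ratio was -1.39 and that of *Ube2e1* was lower. *Cdc34* itself, an E2 without the *Ube2* prefix, was at 35.3 FPKM in *Btg4*-depleted oocytes and 42.6 FPKM in control oocytes, so that transcripts of this pair came mostly from *Cdc34* in both groups.

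The E2s of endoplasmic reticulum-associated degradation, which marks misfolded secretory proteins, were all on the higher side after scaling. *Ube2j2*, anchored in the membrane of the reticulum, was at 5.65 FPKM in *Btg4*-depleted oocytes and 1.26 FPKM in control oocytes (log2 ratio 1.67). Its estimated fragments per library were 144 in *Btg4*-depleted oocytes and 32.2 in control oocytes. *Ube2j1*, anchored likewise, was at 4.85 FPKM in *Btg4*-depleted oocytes and 3.11 FPKM in control oocytes (log2 ratio 0.64). In *Btg4*-depleted oocytes *Ube2j2* stood slightly above *Ube2j1*, at a ratio of 1.16, while in control oocytes the ratio was 0.406. *Ube2g2*, the soluble E2 of this pathway, was much more abundant and nearly level, with 46.6 FPKM in *Btg4*-depleted oocytes and 47.9 FPKM in control oocytes, a log2 ratio of 0.12 that became -0.04 without scaling.

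The E2 of K63-linked chains and both of its partners were higher together. UBE2N makes these chains, which act in DNA repair and signalling, only as a dimer with UBE2V1 or UBE2V2. *Ube2n* was at 31.3 FPKM in *Btg4*-depleted oocytes and 18.1 FPKM in control oocytes (log2 ratio 0.92). *Ube2v1* was at 47.8 FPKM in *Btg4*-depleted oocytes and 25.02 FPKM in control oocytes (log2 ratio 1.07). *Ube2v2* was at 5.88 FPKM in *Btg4*-depleted oocytes and 2.82 FPKM in control oocytes (log2 ratio 0.98). At a pseudocount of 1 these ratios lie within 0.15 of each other on the log2 scale. With no pseudocount they were 0.96 for *Ube2n*, 1.10 for *Ube2v1* and 1.23 for *Ube2v2*. After the length correction they were further apart, at 1.12, 0.85 and 1.43 in the same order. The balance of *Ube2n* to the sum of both partners was therefore almost kept, at 0.584 in *Btg4*-depleted oocytes and 0.649 in control oocytes, and *Ube2v1* exceeded *Ube2v2* by 8.13-fold in *Btg4*-depleted oocytes and 8.88-fold in control oocytes.

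**Figure D2:**
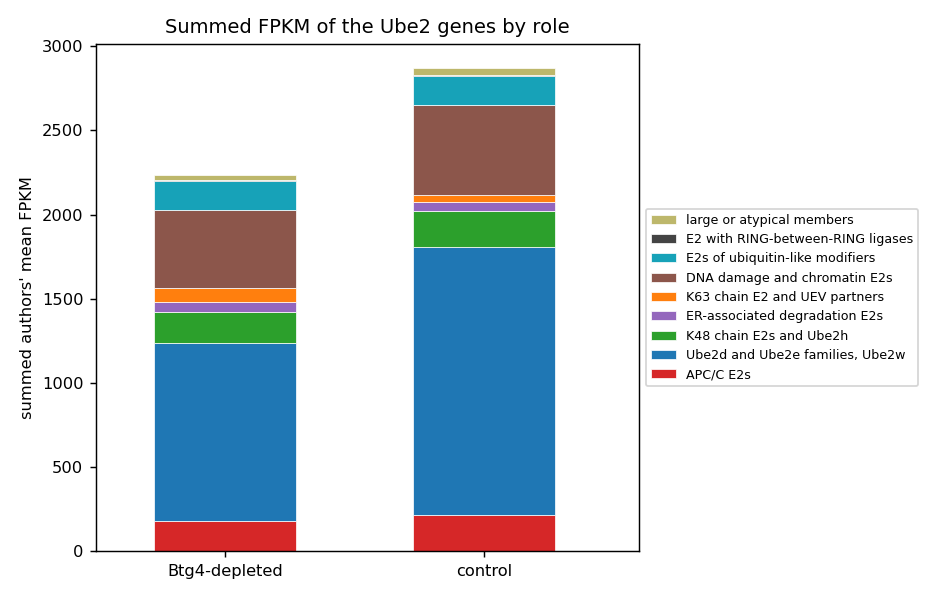
Summed authors' mean FPKM of the 34 *Ube2* genes in *Btg4*-depleted and control oocytes, stacked by role, without an error. The total was 2237 FPKM in *Btg4*-depleted oocytes and 2871 FPKM in control oocytes, and the largest block, the Ube2d and Ube2e genes with *Ube2w*, was at 1056 and 1593 FPKM.

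The RAD6 enzymes and the Fanconi anaemia E2 act on DNA damage and chromatin. UBE2A and UBE2B, the mammalian RAD6 proteins, ubiquitinate the replication clamp PCNA with RAD18 and histone H2B with RNF20 and RNF40. *Ube2a* was at 93.5 FPKM in *Btg4*-depleted oocytes and 45.1 FPKM in control oocytes (log2 ratio 1.20). *Ube2b* was at 66.3 FPKM in *Btg4*-depleted oocytes and 40.3 FPKM in control oocytes (log2 ratio 0.87). The near-identical pair was thus higher together, with *Ube2a* above *Ube2b* in both groups. *Ube2t*, which with FANCL ubiquitinates the FANCD2 complex at DNA crosslinks, was the second most abundant member, at 301 FPKM in *Btg4*-depleted oocytes and 448 FPKM in control oocytes (log2 ratio -0.41).

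Among the E2s of ubiquitin-like modifiers, the NEDD8 enzymes were higher in *Btg4*-depleted oocytes. *Ube2f*, which passes NEDD8 to the cullin CUL5, had the largest log2 ratio of the 32 genes at a pseudocount of 1, 1.84, with 31.2 FPKM in *Btg4*-depleted oocytes and 8.99 FPKM in control oocytes. Of all measured genes, 95.8% had a ratio as low or lower. *Ube2j2* was above it at each smaller pseudocount (2.23 against 1.95 at a pseudocount of 0.1) and after the length correction (1.76 against 1.44). *Ube2m*, which passes NEDD8 to the other cullins, was at 7.10 FPKM in *Btg4*-depleted oocytes and 3.69 FPKM in control oocytes (log2 ratio 0.93). The ratio of *Ube2f* to *Ube2m* was 4.40 in *Btg4*-depleted oocytes and 2.44 in control oocytes. *Ube2l6*, the E2 of the interferon-induced modifier ISG15, was below the minimum, at 0.287 FPKM in *Btg4*-depleted oocytes and 0.430 FPKM in control oocytes, or an estimated 3.14 and 4.72 fragments per library.

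The remaining members were low or moderate. *Ube2l3*, which works with RING-between-RING ligases such as ARIH1 and Parkin, was at 3.37 FPKM in *Btg4*-depleted oocytes and 5.24 FPKM in control oocytes (log2 ratio -0.38). *Ube2o*, a large enzyme that acts as E2 and ligase in one chain, was at 6.53 FPKM in *Btg4*-depleted oocytes and 16.0 FPKM in control oocytes (log2 ratio -1.03). *Ube2z*, which is loaded by the alternative E1 UBA6, was at 3.33 FPKM in *Btg4*-depleted oocytes and 6.32 FPKM in control oocytes (log2 ratio -0.62). All 3 were thus lower in *Btg4*-depleted oocytes. The paralogues *Ube2q1* and *Ube2q2* differed in opposite directions. *Ube2q1* was at 2.67 FPKM in *Btg4*-depleted oocytes and 1.40 FPKM in control oocytes, and *Ube2q2* was at 3.34 FPKM in *Btg4*-depleted oocytes and 7.84 FPKM in control oocytes, so that the ratio of *Ube2q2* to *Ube2q1* was 1.25 in *Btg4*-depleted oocytes and 5.58 in control oocytes. *Ube2u* was at 4.76 FPKM in *Btg4*-depleted oocytes and 3.26 FPKM in control oocytes. *Ube2ql1* was below the minimum, at 0.073 FPKM in *Btg4*-depleted oocytes and at 0.010 FPKM in control oocytes, the lowest value the table lists, and no fold is given for it.

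Together the 34 transcripts made up 0.523% of all FPKM in *Btg4*-depleted oocytes (2237 of 427823) and 0.702% in control oocytes (2871 of 408816). Part of this gap lay with *Ube2d3*, without which the shares were 0.314% in *Btg4*-depleted oocytes and 0.365% in control oocytes. Another part lay with the denominator, to which *Ccdc82* and the polyubiquitin gene *Ubb* contribute far more in *Btg4*-depleted oocytes. With both of these left out the shares were 0.598% in *Btg4*-depleted oocytes and 0.721% in control oocytes. The order of levels within the family was similar in both groups (Spearman's rho 0.87 across 32 genes, against 0.86 across all measured genes, where genes of the same libraries are not independent points). *Ube2d3* and *Ube2t* were the most abundant members, in this order, in both.

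**Figure D3:**
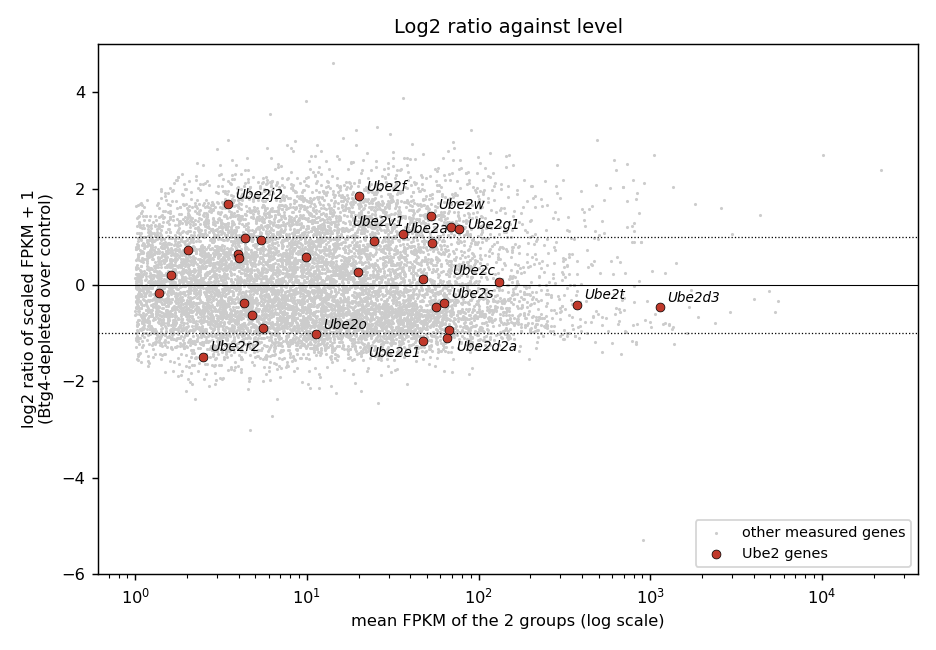
Log2 ratio of scaled FPKM + 1, *Btg4*-depleted over control, against the mean FPKM of both groups (log scale) for the measured *Ube2* genes described by name (red) and other measured genes (grey), with dotted lines at 2-fold. The *Ube2* genes spread over the grey cloud, and the abundant *Ube2d3*, *Ube2t* and *Ube2c* lie between -0.46 and 0.05.

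Transcript length moved with the log2 ratio over all genes, and the correlation found across the few members of this family was weaker. Across the 10012 measured genes Spearman's rho between length and log2 ratio was -0.33 (Pearson's r on log2 length -0.33). Across the 32 *Ube2* genes it was -0.09 (Pearson's r -0.09), where all points come from the same libraries. Whether this departs from the correlation over all genes was not tested. The 14 members shorter than 2000 bases had a median log2 ratio of 0.24, against 0.49 for all 3384 such genes. The 8 members of at least 3500 bases had a median of 0.09, against -0.43 for all 3369 such genes. The 10 members between these lengths had a median of -0.21, against -0.0008 for all 3259 such genes. In the median, short and middle members thus lay lower and long members higher than all genes of like length, and this difference was not tested.

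Residuals from the trend were centred to a median of 0 over all measured genes, and some abundant short members were below it. The residual was -0.91 for *Ube2t*, -0.90 for *Ube2s* and -0.48 for *Ube2c*, each with a transcript of about 1 kilobase. The short transcript of *Ube2e1* was furthest below, at -1.54. Transcripts of at least 3500 bases lay on both sides of the trend. *Ube2v2* was at a residual of 1.43, *Ube2g1* at 1.36, *Ube2n* at 1.12 and *Ube2j1* at 0.78. *Ube2o* was at -0.65, *Ube2k* at -0.59, *Ube2z* at -0.41 and *Ube2h* at -0.22. The residual was 1.44 for *Ube2f* and 1.76 for *Ube2j2*, which also had the highest log2 ratios without the correction.

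**Figure D4:**
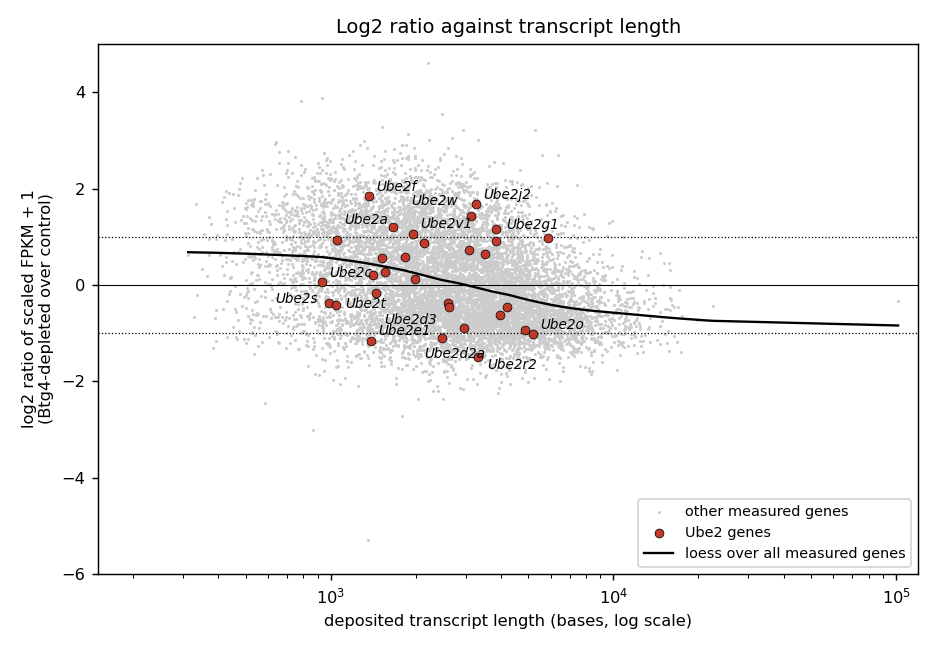
Log2 ratio of scaled FPKM + 1, *Btg4*-depleted over control, against the deposited transcript length (log scale) for the same *Ube2* genes (red) and other measured genes (grey), with the loess trend of all measured genes in black. The trend falls with length, and *Ube2s* (log2 ratio -0.38) and *Ube2t* (-0.41) at its short end lie below it while *Ube2g1* (1.16) at longer length lies above it. Other short and long members lie on both sides of it.

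Cytoplasmic polyadenylation elements are short U-rich sites near the poly(A) signal that direct lengthening of the tail in maturing oocytes. The letters TTTTAT or TTTTAAT were searched on the sense strand within 150 nucleotides of the transcript end, in the GENCODE M21 coding transcript nearest to the deposited length, and shorter 3′ UTRs were left out. They were found in 5 of 30 *Ube2* genes (16.7%) and in 26.4% of 8671 measured genes. Over all genes, the median log2 ratio was -0.42 with an element and 0.04 without. Over the *Ube2* genes it was 0.12 for the 5 with an element and 0.21 for the 25 without. The 5 sites are shown in order of their log2 ratio, because they include both one of the highest ratios of the family (*Ube2f*) and one of the lower ones (*Ube2q2*). Each is given with 30 bases around the element nearest to the transcript end, read in the direction of the transcript, with the element in capitals.
*Ube2f* (GRCm38 chr1:91285868-91285897, plus strand): ctgaaatgcgtaTTTTATttaatgtaagta
*Ube2w* (GRCm38 chr1:16569793-16569822, minus strand): gtgattaatgtaTTTTATaaattacctttt
*Ube2g2* (GRCm38 chr10:77645882-77645911, plus strand): aaaacaaagtatTTTTATtcatttgtattt
*Ube2t* (GRCm38 chr1:134974081-134974110, plus strand): aaggatagtttgTTTTATttatcttgtaca
*Ube2q2* (GRCm38 chr9:55207427-55207456, plus strand): ttttttttttgaTTTTATttttcattgcag

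All 5 have the element TTTTAT, which began 146 nucleotides before the annotated end in *Ube2f*, 29 in *Ube2w*, 100 in *Ube2g2*, 70 in *Ube2t* and 91 in *Ube2q2*. A match is a description of the letters and not a tested site. The transcript used was within 10% of the deposited length for 24 of 32 members but not for *Ube2w* and *Ube2q2*, so the 3′ end used in the oocyte may be another one for these. The annotated ends of *Ube2f* and *Ube2w* also have no poly(A) signal (AATAAA or ATTAAA) in their last 40 nucleotides.

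Several members share stretches of sequence with other annotated genes, and their reads could have been split or misassigned. Words of 100 bases, the read length, were compared with all GENCODE M21 transcripts on both strands. *Ube2v1* shared 88.4% of its words with other genes, most with *Gm20431*. *Ube2e1* shared 47.4% with *Nkiras1*, and *Ube2h* shared 32.5%, most with *Gm26526*. *Ube2d2a* (14.5%), *Ube2q2* (13.6%), *Ube2l3* (12.7%) and *Ube2d3* (12.0%) shared less, and 19 of the 34 genes shared no word. *Ube2a* and *Ube2b* were among these, as were *Ube2c*, *Ube2s*, *Ube2t*, *Ube2g1*, *Ube2k* and *Ube2r2*. The levels of *Ube2v1*, *Ube2e1* and *Ube2h* are therefore uncertain, and how the reads were assigned is not given in the sources used here.

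Other genes of the conjugation pathway were read from lists of E1s, E2s without the prefix, modifiers and ligase partners. Of the 8 measured E1 genes 1 was at least 2-fold higher, *Atg7*, the E1 of autophagy, and 0 were at least 2-fold lower (19.5% and 11.4% of all measured genes), with a median log2 ratio of -0.17. *Uba1*, the main E1 for ubiquitin, was at 75.1 FPKM in *Btg4*-depleted oocytes and 59.5 FPKM in control oocytes. *Nae1*, a subunit of the NEDD8 E1 that charges UBE2F and UBE2M, was at 93.0 FPKM in *Btg4*-depleted oocytes and 173 FPKM in control oocytes (log2 ratio -0.73). The NEDD8 pathway therefore held differences in both directions.

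Of the 8 E2 and UEV genes without the prefix, 2 were at least 2-fold lower and 0 at least 2-fold higher (11.4% and 19.5% of all measured genes). *Birc6*, a giant inhibitor of apoptosis with an E2 domain, was at 1.05 FPKM in *Btg4*-depleted oocytes and 4.72 FPKM in control oocytes, and it alone of these 8 stands in a deposited list, that of genes called lower with DESeq2. *Atg3*, an E2 of autophagy, was at 3.26 FPKM in *Btg4*-depleted oocytes and 10.9 FPKM in control oocytes. Of 6 measured modifiers only *Sumo3* was at least 2-fold different, at 145 FPKM in *Btg4*-depleted oocytes and 68.8 FPKM in control oocytes, while *Sumo2* was at 309 FPKM in *Btg4*-depleted oocytes and 593 FPKM in control oocytes.

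Of 24 measured ligase partners 4 were at least 2-fold higher and 4 at least 2-fold lower, with a median log2 ratio of -0.25 (19.5% of all measured genes were that much higher and 11.4% that much lower). *Rnf40*, the partner of the RAD6 enzymes at histone H2B, was at 35.4 FPKM in *Btg4*-depleted oocytes and 8.92 FPKM in control oocytes (log2 ratio 2.03), and it alone of this list stands in a deposited list, that of genes called higher with DESeq2. Its partner *Rnf20* was at 39.3 FPKM in *Btg4*-depleted oocytes and 70.7 FPKM in control oocytes. *Anapc2*, the cullin subunit of the APC/C, was at 21.9 FPKM in *Btg4*-depleted oocytes and 4.76 FPKM in control oocytes (log2 ratio 2.14), while *Anapc11*, its RING subunit, was at 2.13 FPKM in *Btg4*-depleted oocytes and 2.09 FPKM in control oocytes. *Fancl*, the ligase of UBE2T, was at 11.7 FPKM in *Btg4*-depleted oocytes and 3.10 FPKM in control oocytes, and *Stub1*, a substrate and partner of UBE2W, at 34.5 FPKM in *Btg4*-depleted oocytes and 16.98 FPKM in control oocytes. The lower ones were *Ranbp2*, *Syvn1*, *Ubr1* and *Arih1*, with log2 ratios from -1.37 to -1.10.

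**Figure D5:**
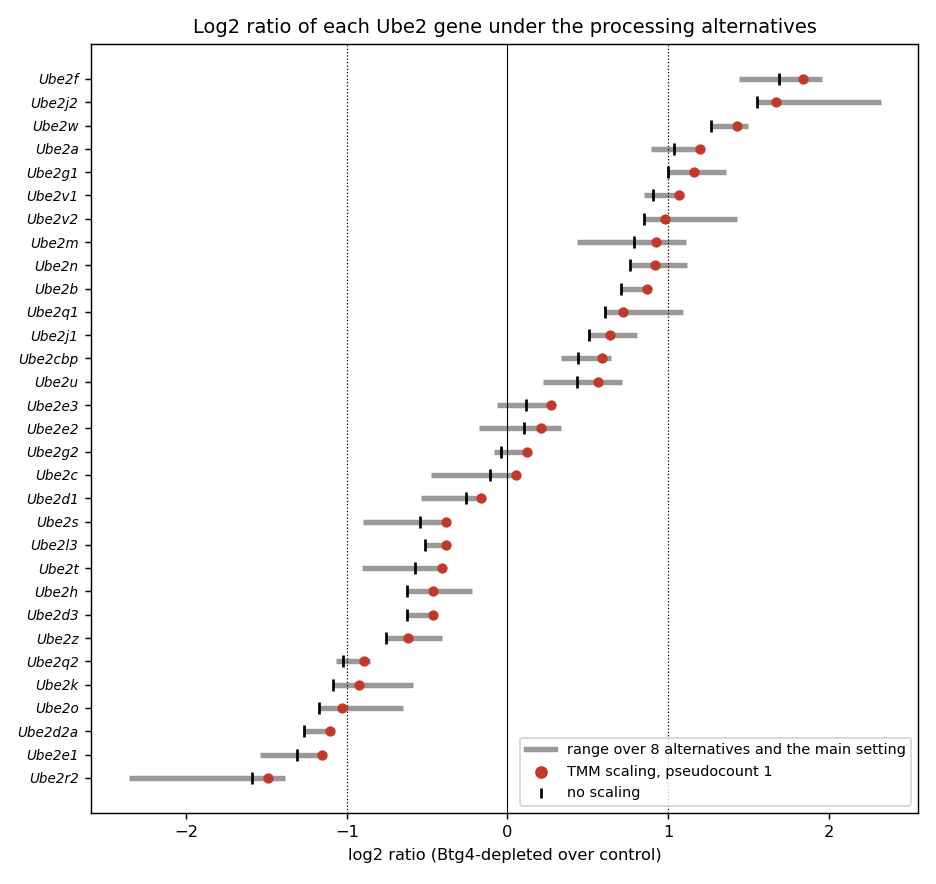
Log2 ratio of the measured *Ube2* genes described by name, *Btg4*-depleted over control, under TMM scaling with a pseudocount of 1 (points), without scaling (black ticks) and over all settings tried (grey bars), with dotted lines at 2-fold. The bars of *Ube2c*, *Ube2g2*, *Ube2e2* and *Ube2e3* cross 0, and those of *Ube2f*, *Ube2j2*, *Ube2w*, *Ube2d2a*, *Ube2e1* and *Ube2r2* stay beyond 2-fold.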

How the data were processed

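SMARTer cDNA libraries of 6 samples were sequenced from both ends, and BWA and mm9 are named in the submitters' processing notes. The authors deposited mean FPKM of each group and a transcript length for every gene, which is not a whole number for 6 *Ube2* genes. For the counting program and the annotation, neither name nor version is given in the sources used here. The authors' log2 ratio, direction and probability beside these means were not used. Of the deposited lists of genes called with DESeq2 and NOISeq, only the gene IDs and the mean normalized count over the libraries (a signal, used to estimate depth from FPKM and length) were used, and not the fold changes, p-values or scores.

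Group means were scaled by TMM (30% of ratios and 5% of levels trimmed on each side, offset 0.16). Log2 ratios of FPKM + 1 were taken over genes with a mean of at least 1 FPKM. The tests between libraries that a table of single libraries would allow (limma) were not run, because group means only are deposited. The alternatives were scaling by the median of ratios, unscaled FPKM, other pseudocounts (0.1 and 0.5), a minimum of 5 FPKM or none, a loess fit on log2 length (span 30%), and, chosen after seeing the data, a pseudocount of 0. The *Ube2* genes were named apart from 1, which enters the counts and sums but is not reported here, and genes of other lists mainly where they differed at least 2-fold. *Uba1*, *Nae1*, *Cdc34*, *Sumo2*, *Rnf20* and *Anapc11* were named beside them after their values were seen. The members and lists were chosen with earlier results of these data known. The code was first tested on simulated data. The tools were matplotlib 3.10.9, statsmodels 0.14.6, scipy 1.17.1, pandas 2.3.3, numpy 2.4.6 and Python 3.11.15.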

Additional observations from a re-analysis of the deposited data

How the results depend on the processing

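Of the 32 measured *Ube2* genes, 28 had a log2 ratio of the same sign under every one of the 8 alternatives that included them. The minimum of 5 FPKM left out the low members. *Ube2c* and *Ube2g2* changed sign without scaling and after the loess correction for length, and *Ube2e2* and *Ube2e3* after the loess correction only. Of the 10 genes past 2-fold, 6 stayed past it in every alternative that included them, and *Ube2a*, *Ube2g1*, *Ube2v1* and *Ube2o* did not. The number of genes at least 2-fold higher ranged from 4 (no scaling) to 9 (pseudocounts of 0.1 and 0). That is 12.5% of *Ube2* genes against 16.2% of all genes without scaling, and 28.1% against 23.2% and 23.7% at these pseudocounts. The number of genes at least 2-fold lower ranged from 3 (loess, and a minimum of 5 FPKM) to 6 (no scaling). That is 9.38% of *Ube2* genes against 10.8% of all genes after loess, and 13.6% against 11.5% at this minimum. Without scaling it is 18.8% against 16.7%. The median log2 ratio was between -0.08 (loess) and 0.20, and the correlation with length between -0.20 (minimum of 5 FPKM) and 0.19 (loess). The log2 ratio of *Btg4* was -5.69 after the loess correction, against -5.29 under TMM scaling.

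No paired analysis was possible because the deposited columns carry group means and no replicate numbers. For the same reason no replicate was left out. Depth limits the low members most, and 7 of the 32, *Ube2r2*, *Ube2j2*, *Ube2d1*, *Ube2e2*, *Ube2q1*, *Ube2m* and *Ube2u*, rest on under 50 estimated fragments per library in at least 1 group.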
